A study of Homo sapiens with 4 samples.

Results

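The EGFR family of receptor tyrosine kinases was followed through 14 of the 12626 probe sets on the HG-U95Av2 array, namely all those whose annotation names EGFR, ERBB2, ERBB3 or ERBB4. Of these, 2 were annotated to EGFR, 3 to ERBB2, 7 to ERBB3 and 2 to ERBB4. Each probe set is a group of short probes against 1 stretch of a transcript and is given separately, because the probe sets of 1 gene did not always give the same result. In 9 of the 14 the signal reached the detection floor used here, a log2 value of 5, on at least 1 array.

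These receptors sit in the cell membrane, bind growth factors outside the cell and pass the signal on by pairing with one another and phosphorylating each other's tails. EGFR binds EGF, TGFA and related ligands. ERBB2 has no known ligand and is the preferred partner of the others. ERBB3 binds neuregulins but has a weak kinase, so it signals through its partners and is a strong activator of PI3K. ERBB4 binds neuregulins and has an active kinase. In the intestine the family is known for driving epithelial growth and repair, and EGFR is a drug target in colon cancer.

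The cells were LS180, an established human colon carcinoma line. RBM35A+ cells carried a Tet-off system that expresses RBM35A once doxycycline is removed. The current name of RBM35A is ESRP1, and it is an epithelial RNA-binding protein that controls splicing. RBM35A+ cells were grown in the absence of doxycycline for 6 days or more, and RBM35A− cells, which the labels call parental, were kept in doxycycline; the labels do not say whether these carried the construct. From each state, polysomal RNA (from transcripts carrying several ribosomes, collected from a sucrose gradient) and total RNA were hybridized to 1 array each. The groups are thus polysomal RNA of RBM35A+ and of RBM35A− cells and total RNA of RBM35A+ and of RBM35A− cells, with 1 array per group. Doxycycline, and the construct if the parental cells lacked it, cannot be told apart from RBM35A in these samples.

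With 1 array per group no test between groups was possible, and no p-value is given. As a yardstick, the scatter of a single probe set was taken, as an SD, from how far probe sets of the same gene disagreed. It was 0.192 for the RBM35A difference in polysomal RNA (390 genes) and 0.203 in total RNA (411 genes), on the log2 scale. This SD is about probes and says nothing of the spread between cultures. A difference of 1.5-fold or more was counted as a call, and the share of all 4710 probe sets at or above the floor that passed it is given as the background. For differences within a fraction, the 4710 include probe sets under the floor on both of its arrays, which cannot pass. Receptor probe sets without a value there are left out of the receptor counts, so the 2 bases are not the same.

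The deposited values show several features that bear on these receptors. On each polysomal array 4312 probe sets reached the floor, and on each total RNA array 4269 did. There was no probe set (0) for RBM35A, so RBM35A itself could not be checked on the arrays. Of 14 colon epithelial markers on the array 13 were detected, among them EPCAM, CDH1 and KRT8, while of 8 haematopoietic and 9 fibroblast and endothelial markers 1 each was detected, HBB and COL1A1. The median difference between RBM35A+ and RBM35A− cells over the 13 epithelial markers was −0.21 in polysomal RNA, with 10 of them below 0, and 0.05 in total RNA, with 5 below 0. Over all genes read in those fractions the medians were 0.02 and 0.00. Each marker was taken at its probe set of highest mean signal. Of these markers 1 passed 1.5-fold, the mucin MUC2, at 1.46 in total RNA (8.00 in RBM35A+ and 6.54 in RBM35A− cells) and −0.07 in polysomal RNA. Of all 3588 detected genes, 1.42% were higher and 0.613% lower by that much in total RNA, and 0.725% and 1.23% in polysomal RNA. A second probe set of CDH1 gave −0.94 in total RNA. HBB was at 0.04 in polysomal and 0.03 in total RNA, and COL1A1 at 0.02 in polysomal RNA. Control probe sets at the 5′ end of beta-actin and GAPDH were lower in RBM35A+ than in RBM35A− polysomal RNA, by log2 differences of −0.86 and −0.79, against −0.02 and −0.13 at their 3′ ends. In total RNA the differences at the 5′ ends were −0.05 and −0.03. Where the receptor probe sets lie along their transcripts was not used here, so the part of this difference between the polysomal preparations in the results below was not tested.

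**Figure D1:**
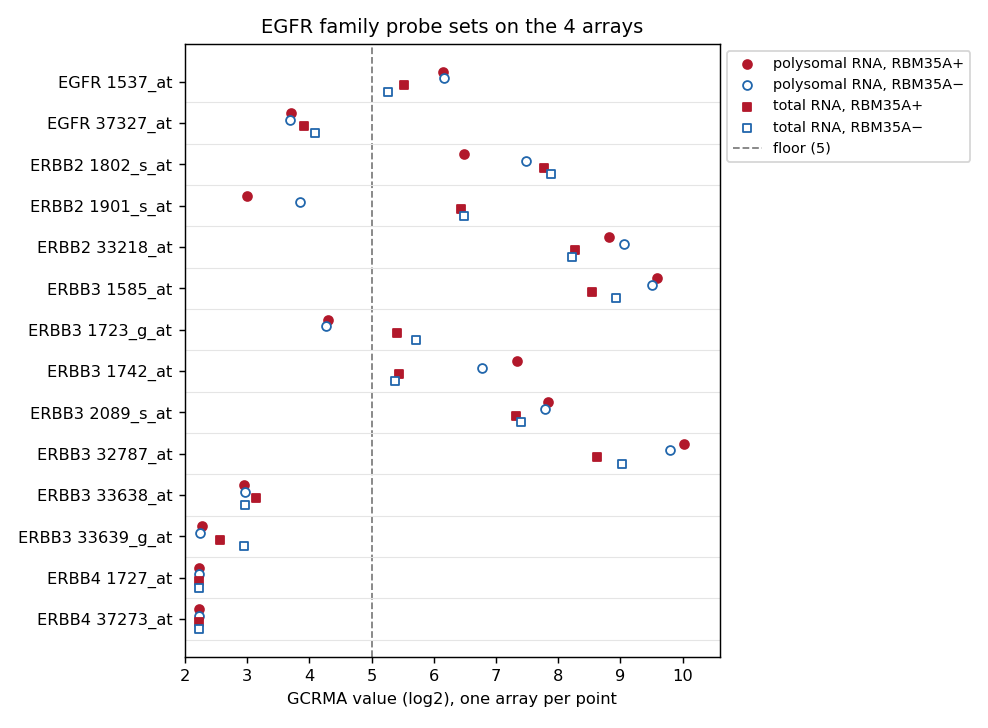
GCRMA value (log2, x axis) of each of the 14 EGFR family probe sets (rows) on the 4 arrays; circles are polysomal RNA, squares total RNA, filled red RBM35A+ and open blue RBM35A−, and the dashed line is the floor of 5. The ERBB4 probe sets lie near 2.2 on all 4 arrays, while 33218_at of ERBB2 and 1585_at and 32787_at of ERBB3 lie above 8 on all 4.

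ERBB4, the neuregulin receptor with an active kinase, was not detected in these cells. Its probe set 1727_at read 2.22 on both polysomal arrays and 2.23 on both total RNA arrays. Its other probe set, 37273_at, read 2.22 on each of the 4 arrays. These values are at the bottom of the scale, so a low level of ERBB4 below the reach of the probes cannot be told apart from none. The ligands were below the floor as well: 7 of 11 listed ligand genes were on the array (EGF, TGFA, EREG, HBEGF, BTC, NRG1 and NRG2), and 0 of them reached a value of 5 on any array.

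EGFR, the receptor of EGF and TGFA, was measured by 1 of its 2 probe sets, with values close to the floor. Probe set 1537_at read 6.15 in polysomal RNA of RBM35A+ cells and 6.17 in that of RBM35A− cells, and 5.53 in total RNA of RBM35A+ cells and 5.26 in that of RBM35A− cells. The RBM35A difference was −0.01 in polysomal RNA and 0.26 in total RNA. The total RNA difference was 1.30 times the SD of 1 probe set, and 442 of the 4710 probe sets were as high or higher, so it did not stand out from the rest of the array. The second EGFR probe set, 37327_at, is annotated to the same sequence record and read 3.70 and 3.69 in polysomal RNA and 3.91 and 4.10 in total RNA, below the floor on every array. It therefore gives no second reading of EGFR.

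ERBB2, the receptor without a ligand of its own, was lower in polysomal RNA of RBM35A+ cells at both probe sets that could be read there, and nearly equal in total RNA at all 3. Probe set 1802_s_at read 6.49 in polysomal RNA of RBM35A+ cells against 7.49 in that of RBM35A− cells, a log2 difference of −0.9995, or 1.999-fold lower. In total RNA it read 7.77 in RBM35A+ cells and 7.89 in RBM35A− cells, a difference of −0.12. The polysomal difference was 5.20 times the SD of 1 probe set in size. Only 13 of the 4710 probe sets were as low or lower, this one included, and 7 of the 794 probe sets within 0.5 of its mean polysomal level. In a population of cells, fewer cells with the transcript on polysomes and less of it on polysomes per cell cannot be told apart. The part of the difference between the polysomal preparations was not tested.

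The other ERBB2 probe set readable in polysomal RNA was in the same direction there but differed in size. Probe set 33218_at read 8.81 in polysomal RNA of RBM35A+ cells and 9.06 in that of RBM35A− cells, a difference of −0.25. In total RNA it read 8.27 in RBM35A+ cells and 8.22 in RBM35A− cells, a difference of 0.04. Its polysomal difference was 1.29 times the SD of 1 probe set in size, and 481 probe sets were as low or lower. The third probe set, 1901_s_at, lay below the floor in polysomal RNA, with 3.00 in RBM35A+ cells and 3.85 in RBM35A− cells, so it has no polysomal difference here. Its total RNA values were 6.44 in RBM35A+ cells and 6.48 in RBM35A− cells, a difference of −0.04.

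The range between the 2 readable ERBB2 probe sets in polysomal RNA was 0.75. A range this wide or wider was seen in 7 of the 390 genes with at least 2 probe sets readable there (1.79%), against a median range of 0.16 over those genes. The suffix of 1802_s_at and 1901_s_at marks probes that can match more than 1 sequence. Thus 1 of the 2 ERBB2 probe sets readable in polysomal RNA passed 1.5-fold there, where 1.59% of all probe sets were lower by that much, and 0 of 3 passed it in total RNA. Over the same arrays the 5′ controls of beta-actin and GAPDH were at −0.86 and −0.79, beside ERBB2 readings of −0.9995 and −0.25. A link between them was not tested.

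**Figure D2:**
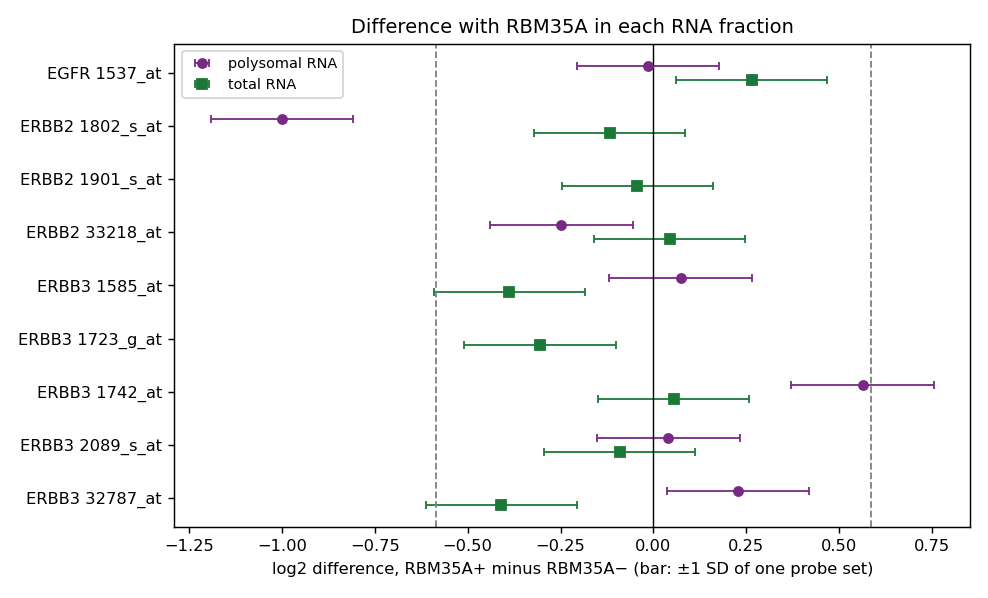
Log2 difference between RBM35A+ and RBM35A− cells (x axis) for the 9 detected EGFR family probe sets, in polysomal RNA (purple circles) and total RNA (green squares); bars are ±1 SD of 1 probe set, estimated from disagreement between probe sets of the same genes, dashed lines mark 1.5-fold, and probe sets at the floor on both polysomal arrays have no circle. The circle of ERBB2 1802_s_at lies at −0.9995, and the 4 circles of ERBB3 lie above 0 while 4 of its 5 squares lie below 0.

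ERBB3, the neuregulin receptor with the weak kinase, was lower in total RNA of RBM35A+ cells at 4 of 5 detected probe sets and not lower in polysomal RNA at any of the 4 that could be read there. None of the 9 differences (0) reached 1.5-fold. Probe set 32787_at read 10.03 in polysomal RNA of RBM35A+ cells and 9.80 in that of RBM35A− cells, a difference of 0.23. In total RNA it read 8.62 in RBM35A+ cells against 9.03 in RBM35A− cells, a difference of −0.41. The total RNA difference was 2.01 times the SD of 1 probe set in size, and 170 of the 4710 probe sets were as low or lower.

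A second probe set, 1585_at, is annotated to the same sequence record as 32787_at. Whether these 2 cover separate stretches of the transcript is not known here. It read 9.59 in polysomal RNA of RBM35A+ cells and 9.51 in that of RBM35A− cells, a difference of 0.07. In total RNA it read 8.54 in RBM35A+ cells and 8.92 in RBM35A− cells, a difference of −0.39. Both probe sets of this record thus gave a total RNA level about 1.3-fold lower in RBM35A+ cells, while their polysomal readings differed by 1.17-fold or less in the other direction.

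The 2 probe sets annotated to another ERBB3 record gave different readings. Probe set 1742_at read 7.33 in polysomal RNA of RBM35A+ cells and 6.77 in that of RBM35A− cells, a difference of 0.56, or 1.48-fold. In total RNA it read 5.44 in RBM35A+ cells and 5.38 in RBM35A− cells, a difference of 0.05. Its polysomal difference was the highest of the family, at 2.93 times the SD of 1 probe set, and 37 of the 4710 probe sets were as high or higher. Probe set 1723_g_at of the same record read 4.30 and 4.27 in polysomal RNA of RBM35A+ and RBM35A− cells, below the floor, and 5.41 and 5.71 in total RNA, a difference of −0.31.

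Among the remaining ERBB3 probe sets, 2089_s_at read 7.83 and 7.79 in polysomal RNA of RBM35A+ and RBM35A− cells and 7.32 and 7.41 in total RNA, differences of 0.04 and −0.09. Both were smaller than the SD of 1 probe set. Probe sets 33638_at and 33639_g_at lay between 2.25 and 3.15 on the 4 arrays and gave no reading. The 5 total RNA differences of ERBB3 spanned 0.46, from −0.41 to 0.05, and 57 of 411 genes (13.9%) had a range as wide or wider. The 4 polysomal differences spanned 0.52, a range reached by 31 of 390 genes (7.95%). A range tends to widen with the number of probe sets, so genes with as many are the closer comparison. Of 3 genes with 5 readable probe sets in total RNA, 2 had a range as wide or wider, ERBB3 included. Of 6 genes with 4 in polysomal RNA, 3 did, ERBB3 included.

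In total RNA, then, 0 of the 9 detected family probe sets were higher or lower by 1.5-fold, where 1.46% of all probe sets were higher and 0.849% lower. In polysomal RNA 1 of 7 was lower, 1802_s_at of ERBB2, where 1.59% of all were lower, and 0 were higher, where 0.637% were. The family holds too few probe sets for these shares to be set against the background with any precision.

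ERBB2 and ERBB3 differed in the sign of the polysomal minus the total difference, which measures how the RBM35A difference changed between the RNA fractions. For ERBB2 this value was −0.88 at 1802_s_at and −0.29 at 33218_at. For ERBB3 it was 0.64 at 32787_at, 0.51 at 1742_at, 0.46 at 1585_at and 0.13 at 2089_s_at. EGFR had −0.28 at 1537_at. The 2 readable probe sets of ERBB2 thus shared 1 sign and the 4 of ERBB3 the other, while EGFR had a single reading. However, ERBB2 33218_at, EGFR 1537_at and ERBB3 2089_s_at lay only 1.22, 1.17 and 0.55 times the SD of 1 probe set (0.239 for this quantity) from 0.

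At 1.5-fold, 32787_at of ERBB3 was higher, as were 1.00% of the 3991 probe sets read in both fractions, and 1802_s_at of ERBB2 was lower, as were 2.81%. For 32787_at 25 of the 3991 were as high or higher, and for 1802_s_at 25 were as low or lower. These values have no replicate check. The matching values of the 5′, middle and 3′ controls were −0.82, −0.71 and 0.04 for beta-actin, and −0.76, −0.21 and 0.03 for GAPDH. The ERBB2 and EGFR values have the sign of the 5′ controls, and the ERBB3 values the opposite sign. The 3′ controls and the GAPDH middle control lay less than the SD of 1 probe set (0.239) from 0. Their signs are therefore not set beside those of the receptors. A link between the receptor and control values was not tested.

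**Figure D3:**
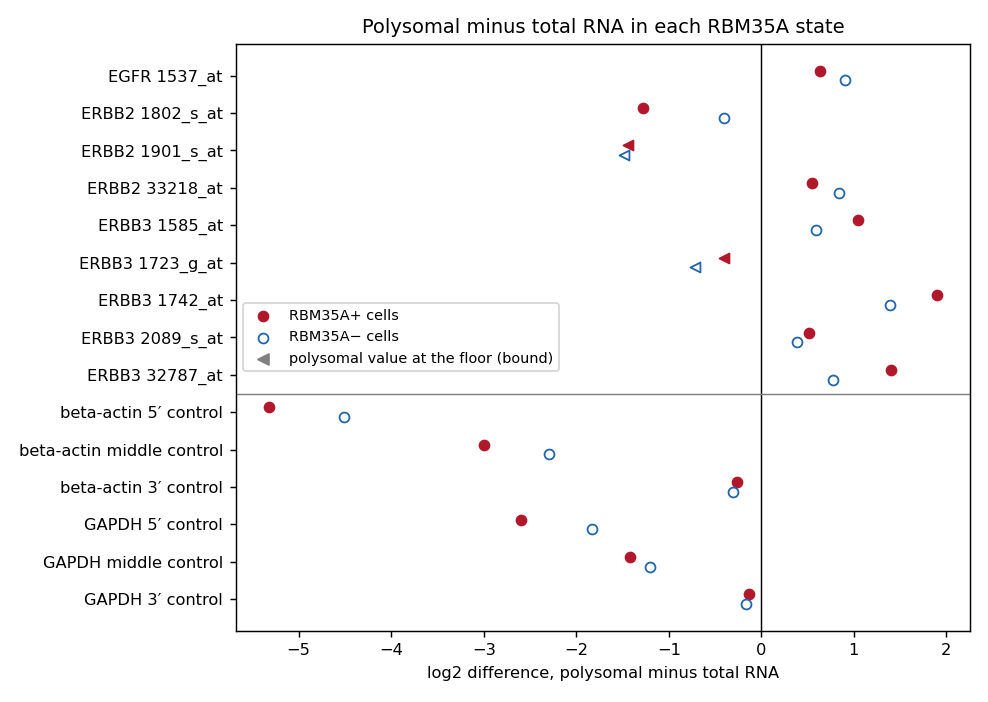
Log2 difference between polysomal and total RNA (x axis) in RBM35A+ cells (filled red) and RBM35A− cells (open blue) for the 9 detected EGFR family probe sets and, under the grey line, for the 5′, middle and 3′ controls of the beta-actin and GAPDH transcripts; triangles are bounds with the polysomal value at the floor. ERBB2 33218_at lies above 0 while the other ERBB2 probe sets lie below it, and the controls fall further below 0 toward the 5′ end.

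Polysomal and total RNA were compared within each state as a description, since the fractions were prepared differently and normalized apart. Probe sets of the same receptor gave opposite signs. For ERBB2, 33218_at was higher in polysomal than in total RNA, by 0.55 in RBM35A+ and 0.84 in RBM35A− cells, while 1802_s_at was lower, with −1.28 and −0.40. The third ERBB2 probe set, 1901_s_at, was lower by at least 2.71-fold in RBM35A+ and 2.79-fold in RBM35A− cells, as its polysomal values were under the floor.

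ERBB3 was higher in polysomal RNA at 4 of its 5 detected probe sets. The difference was 1.41 in RBM35A+ and 0.77 in RBM35A− cells at 32787_at, and 1.05 and 0.59 at 1585_at. At 1742_at it was 1.90 and 1.39, and at 2089_s_at 0.51 and 0.38. The exception was 1723_g_at, which was lower by at least 1.33-fold in RBM35A+ and 1.64-fold in RBM35A− cells although it shares its annotated record with 1742_at. EGFR was higher in polysomal RNA at 1537_at, by 0.63 and 0.91.

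At 1.5-fold, 4 of the 9 family probe sets were higher in polysomal RNA and 2 lower in RBM35A+ cells, where 25.2% of all probe sets were higher and 19.1% lower. In RBM35A− cells 5 were higher and 2 lower, where 24.8% were higher and 19.4% lower. The SD of 1 probe set for this comparison was 0.785 in RBM35A+ and 0.712 in RBM35A− cells, so of the values measured on both arrays only that of 1742_at in RBM35A+ cells (2.42 times the SD) lay more than 2 such SDs from 0. The values of 1901_s_at were at least 1.83 SDs from 0 in RBM35A+ and 2.08 SDs in RBM35A− cells, and those of 1723_g_at at least 0.52 and 1.00 SDs. Over the same arrays the controls of beta-actin were at −5.32 and −4.51 at the 5′ end and −0.27 and −0.30 at the 3′ end. Those of GAPDH were at −2.59 and −1.83 at the 5′ end and −0.14 and −0.16 at the 3′ end.

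For each receptor with a representative probe set read on all 4 arrays, the genes with the most similar pattern were found by the distance between the 4 log2 values after subtracting their mean, among 3001 genes. Nearest to EGFR were HSF4, a heat shock transcription factor (distance 0.02), ENTPD4, a nucleotide hydrolase of the Golgi (0.04), and the actin cross-linker ACTN4 (0.06), against a median distance of 0.82. Nearest to ERBB2 33218_at were the inositol phosphatase INPP1 (0.07), the fatty acid amide hydrolase FAAH (0.07) and HEBP2 (0.07). Nearest to ERBB3 32787_at were the dynactin subunit DCTN2 (0.09), the malic enzyme ME3 (0.11) and the microtubule affinity kinase MARK3 (0.11). DCTN2 was at 0.27 in polysomal and −0.37 in total RNA, beside 0.23 and −0.41 for ERBB3. The likeness rests on 4 arrays and describes these arrays alone.

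The genes around the receptors were taken from lists, with each gene represented by its probe set of highest mean signal. Sheddases release the membrane-bound ligands. Of 6 on the array 4 were detected, and 0 passed 1.5-fold in either fraction. Of all 3588 detected genes, 0.725% were higher and 1.23% lower in polysomal RNA, and 1.42% and 0.613% in total RNA. A count of 0 thus says little about so short a list. ADAM9 was at 0.02 in polysomal and 0.52 in total RNA, ADAM15 at −0.11 and 0.37, and ADAM10, which sheds EGF and betacellulin, at −0.02 and −0.19. ADAM17, the main sheddase of TGFA and amphiregulin, was read in polysomal RNA only, at −0.09. The median of the 4 was −0.05 in polysomal RNA and that of the 3 read in total RNA was 0.37, against 0.02 and 0.00 over all genes read in those fractions.

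Of 35 adaptors and kinases of the RAS-MAPK and PI3K branches, 27 were on the array and 20 were detected. In polysomal RNA 0 passed 1.5-fold in either direction, where 0.725% of all 3588 detected genes were higher and 1.23% lower. In total RNA 2 were higher and 0 lower, where 1.42% were higher and 0.613% lower. These were PDPK1, the kinase that activates AKT, which was at least 1.80-fold higher, with 5.84 in RBM35A+ cells and a value under the floor, 4.83, in RBM35A− cells, and the RAS exchange factor SOS2, at least 1.72-fold higher, with 5.79 and 4.99. Both thus rest on an array near the floor.

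The ERK kinase MAPK3 was lowest in total RNA, at −0.54, with −0.14 in polysomal RNA. PIK3R3, a regulatory subunit of PI3K, was at 0.46 in polysomal and 0.35 in total RNA, and AKT1 at −0.38 and −0.15. The adaptor GRB2, which couples the receptors to RAS, was at 0.02 and −0.06, and SHC1 at 0.09 and −0.14. The median of the list was −0.003 in polysomal RNA (16 genes) and 0.14 in total RNA (20 genes). Over all genes read in those fractions the medians were 0.02 and 0.00.

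Receptor trafficking and feedback inhibitors end the signal, by sorting receptors for degradation or by removing phosphate from the kinases below them. Of 26 on the array 15 were detected, and 0 passed 1.5-fold in either fraction. The shares of all detected genes were 0.725% higher and 1.23% lower in polysomal RNA, and 1.42% and 0.613% in total RNA. With shares this small, 0 of 15 says little about the list. In polysomal RNA 11 were below 0 and 4 above, with a median of −0.12, and in total RNA 8 were below and 7 above, with a median of −0.02. The medians over all genes read in those fractions were 0.02 and 0.00. The share of all genes below 0 was not counted, for this list or the others. The ERK phosphatase DUSP6 was at −0.49 in polysomal and −0.19 in total RNA, and HGS, which sorts ubiquitinated receptors on endosomes, at −0.32 and 0.22. RNF41, the ubiquitin ligase known for degrading ERBB3, was at −0.22 and −0.17. The endocytic adaptor EPS15 was at −0.19 and −0.21, and the caveolin CAV2 at −0.12 and −0.21.

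Of 13 receptor partners and chaperones on the array 10 were detected, and 0 passed 1.5-fold in either fraction. The medians were 0.06 in polysomal and 0.03 in total RNA, against 0.02 and 0.00 over all genes read in those fractions. Among all detected genes, 0.725% were higher and 1.23% lower in polysomal RNA, and 1.42% and 0.613% in total RNA, so 0 of 10 says little here. HSP90AB1 and CDC37, chaperones that stabilize ERBB2, were at −0.03 and 0.10 in polysomal RNA and 0.04 and 0.01 in total RNA. PA2G4, an ERBB3-binding protein, was at 0.31 in polysomal and −0.01 in total RNA. The adhesion protein CDH1 was at 0.10 and 0.39, and TOB2 at 0.12 and 0.36. Other probe sets of some of these genes gave other values: a second one of CDH1 gave −0.94 in total RNA and was not read in polysomal RNA, and a second one of HSP90AB1 gave −0.42 in polysomal RNA. CD44, an adhesion receptor of hyaluronan that can act as a co-receptor, was at 0.10 and −0.18, while another of its probe sets gave 0.75 and 0.60. Further CD44 probe sets gave 0.29 and 0.04 in polysomal RNA, with −0.29 and −0.28 in total RNA. A last one gave −0.48 in total RNA.

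Of 17 growth factor target transcripts on the array 13 were detected, with 9 below and 3 above 0 in polysomal RNA and 8 below and 5 above in total RNA. In polysomal RNA 3 were 1.5-fold lower, MYC (−1.27), PHLDA1 (−0.66) and IER3 (−0.63), where 1.23% of all detected genes were lower, and 0 were higher, where 0.725% were. In total RNA 0 passed, with −0.21, −0.42 and −0.18 for the same genes. The medians were −0.10 in polysomal RNA (12 genes) and −0.14 in total RNA (13 genes), against 0.02 and 0.00 over all genes read there. CCND1, the cyclin of the G1 phase, was at 0.01 in polysomal and 0.05 in total RNA. Another of its probe sets gave −0.24 in both fractions, and a further one 0.15 in polysomal and 0.06 in total RNA. The MYC value comes from a probe set whose suffix marks shared sequence. Other probe sets of MYC gave polysomal differences of −0.69 and −0.04, and a further one was under the floor there. The mean of the 3 readable ones was −0.67, and with the unreadable one taken as 0 the mean of the 4 was −0.50, short of 1.5-fold. VEGFA was at −0.03 in both fractions, while another of its probe sets gave −0.76 in polysomal and 0.09 in total RNA. A further VEGFA probe set gave −0.07 in polysomal and −0.02 in total RNA. For the polysomal minus the total difference, 2 listed genes were 1.5-fold lower, PDPK1 (a bound, −0.84) and MYC (−1.06, or −0.50 as the mean of 3 probe sets), where 2.40% of the 3123 genes read in both fractions were lower, and 0 were higher, where 1.02% were.

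Other receptor tyrosine kinases give the nearest comparison for the family. Of 43 on the array 13 were detected, and the only one past 1.5-fold was EPHB3, an ephrin receptor of the crypt, in polysomal RNA, at −0.93, with −0.47 in total RNA. The share of all detected genes lower by that much in polysomal RNA was 1.23%, so 1 of 13 genes says little about this list. MST1R, the receptor of macrophage-stimulating protein, was at −0.27 and −0.17, and TYRO3 at −0.01 and −0.32. MET, the receptor of hepatocyte growth factor, was at 2.37 in RBM35A+ and 2.44 in RBM35A− polysomal RNA, under the floor, against 7.01 and 7.10 in total RNA, and ERBB2 1901_s_at was likewise read in total RNA alone. INSR, the insulin receptor, was at 0.19 in polysomal RNA and under the floor in total RNA.

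**Figure D4:**
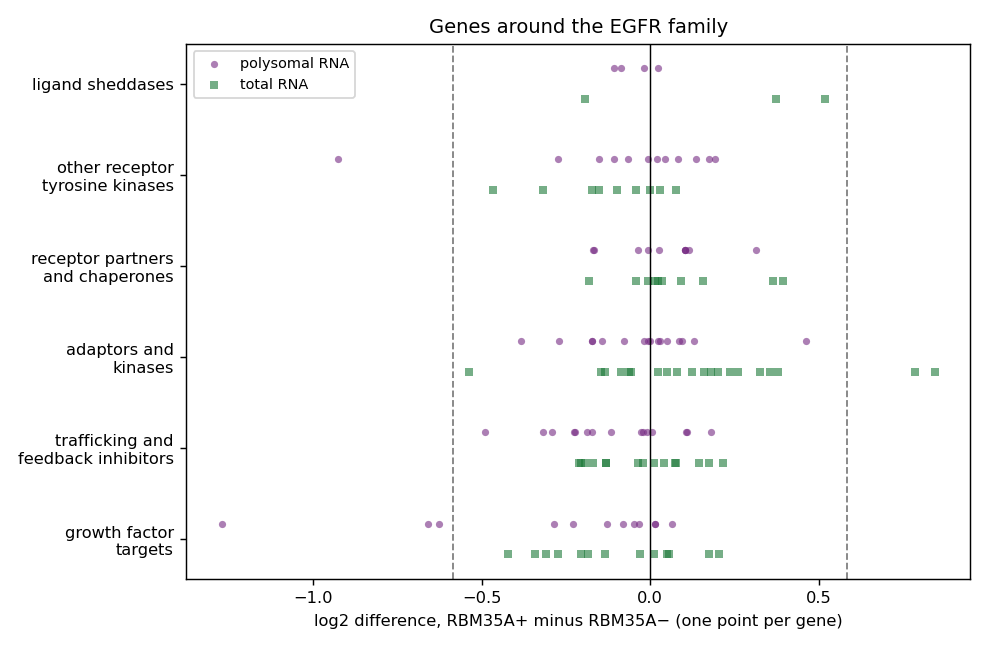
Log2 difference between RBM35A+ and RBM35A− cells (x axis) for the detected genes of 6 lists around the EGFR family, in polysomal RNA (purple circles) and total RNA (green squares), 1 point per gene; dashed lines mark 1.5-fold and genes at the floor on both arrays of a fraction are not drawn. Most genes lie within 1.5-fold; those beyond it are MYC, PHLDA1, IER3 and EPHB3 on the lower side in polysomal RNA and PDPK1 and SOS2 on the higher side in total RNA.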

How the data were processed

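The authors deposited log2 expression values, 1 per probe set and array, made with GCRMA according to the labels; per the submitters' processing notes no version is named, and a genome build is not given in the sources used here. Sorted values of the 2 arrays of a fraction differed by at most 6.61e-06, and those of different fractions by up to 0.227, so each fraction had been quantile normalized by itself. Probe sets were named from the array annotation: 10943 carried 1 symbol, of which 10934 were matched by gene ID to RefSeq (GRCh38.p14, names only), 546 carried several and 1070 none. The 67 controls were kept apart.

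Values under 5 were raised to 5, and probe sets reaching 5 on at least 1 array were counted as detected (4710, or 3588 genes); for the polysomal minus the total difference, only the 3991 probe sets reaching 5 in both fractions were ranked and counted. A difference with 1 floored value is a bound, and a pair floored on both arrays has no value. Differences were computed with Python 3.11.15 and pandas 2.3.3, and the calculation was tested on simulated data. Each group had 1 array, so no test was run, and precision is limited by the number of arrays. Named genes were the receptors' probe sets, list members past 1.5-fold or at the ends of each list, ligands on the array, the 3 nearest genes per receptor, and controls; a few list members were named for their role, after their values were seen. Members, lists and rules were chosen with earlier results of these data known. Alternatives were floors of 4 and 6, no floor, joint quantile normalization, removal of a level trend, leaving out probe sets of shared sequence, and gene means.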

Additional observations from a re-analysis of the deposited data

Results flagged for a closer look

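For 5 probe sets read on all 4 arrays the RBM35A difference had opposite signs in polysomal and total RNA. Except at ERBB3 32787_at, at least 1 of these signs came from a difference well under the SD of 1 probe set. These were −0.01 in polysomal RNA at EGFR 1537_at, 0.04 in total RNA at ERBB2 33218_at and 0.07 in polysomal RNA at ERBB3 1585_at. At ERBB3 2089_s_at both were, with 0.04 in polysomal and −0.09 in total RNA. The polysomal minus the total difference was 0.64 at ERBB3 32787_at, 0.46 at ERBB3 1585_at and 0.13 at ERBB3 2089_s_at. It was −0.29 at ERBB2 33218_at and −0.28 at EGFR 1537_at. Each fraction had 1 array per state, so this difference was not tested, and the value of 2089_s_at was smaller than the SD of 1 probe set for this quantity (0.239).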

How the results depend on the processing

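All 205 recomputed differences of the receptors' probe sets kept their sign, and 196 moved by less than the SD of 1 probe set. Many of the 196 could not move. For a probe set above 6 on every array, floors of 4 and 6 and no floor return the same value. Leaving out probe sets of shared sequence does not change the values of those kept. That setting removed ERBB2 1802_s_at, the only family probe set past 1.5-fold in polysomal RNA. The difference at 1802_s_at was therefore not checked there. The 9 that moved further were polysomal minus total values next to the floor. ERBB2 1901_s_at was at −2.44 with a floor of 4, −0.44 with a floor of 6 and −3.44 without a floor in RBM35A+ cells, and at −2.48, −0.48 and −2.63 in RBM35A− cells. In RBM35A− cells ERBB3 1723_g_at was at −1.44 with a floor of 4 and also without a floor, and EGFR 1537_at at 0.17 with a floor of 6. The count of all probe sets 1.5-fold lower in total RNA, 40 here, was 73 with a floor of 4, 17 with a floor of 6 and 26 without probe sets of shared sequence. That of probe sets lower in polysomal RNA, 75, was 49 without those of shared sequence, and that of probe sets with a higher polysomal than total difference, 40, was 68 with a floor of 4 and 82 without a floor. Among listed genes, 1 was higher in polysomal RNA with a floor of 4 or none, against 0, and 1 was lower in total RNA with a floor of 4, against 0. In total RNA 0 were higher with a floor of 6 and 1 without shared sequence, against 2. For the polysomal minus the total difference, 4 were lower with a floor of 4, 5 without a floor, and 1 with a floor of 6, without shared sequence or with gene means, against 2. In polysomal RNA 3 were lower with gene means, against 4, as MYC was then at −0.50, with its unreadable probe set taken as 0. These changes follow from which values lie at the floor and which probe sets are counted. Leaving out a replicate was not run, since each group had 1 array. No paired analysis was possible because the groups have no replicates.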
